A study of Mus musculus with 8 samples.

Results

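The 10 genes described here are Hif1a and 9 genes that belong to the cellular response to low oxygen: Egln1, Egln3, Vegfa, Pdk1, Ankrd37, Bnip3, Car9, Ndrg1 and Adm. They were chosen by name, and all 10 were found among the 24203 named genes of the array, with 22 features between them. Each gene was read from its brightest feature by the mean over all arrays, and its other features are given beside it. Expression was measured in spleen RNA of 8 mice on 1-colour arrays labelled with Cy3. The 4 knockout mice lack miR-155 and are named Mim1-5, Mim1-6, Mim2-2 and Mim2-3. The 4 control mice are wild type and are numbered 1 to 4. Each genotype holds 2 animals labelled female and 2 labelled male. In the knockout the labelled sex coincides with the name, Mim1 for females and Mim2 for males, so name and labelled sex cannot be told apart there. Age, strain, treatment and the design of the deleted allele are not given in the sources used here. The samples are described as separate spleens, and every array stands for 1 animal.

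HIF1A is the oxygen-regulated subunit of hypoxia-inducible factor, a transcription factor that pairs with ARNT. In the presence of oxygen, prolyl hydroxylases encoded by the Egln genes mark HIF1A for recognition by VHL and for destruction by the proteasome. At low oxygen the protein is stable and activates genes for blood vessel growth, anaerobic metabolism, pH control and mitophagy. Much of this control acts on the protein, which arrays do not measure. In the spleen, HIF1A shapes macrophage, neutrophil and lymphocyte metabolism. The mature strand of the missing microRNA, whose gene lies on chromosome 16 from 84714143 to 84714165 on the plus strand of GRCm38.p6, is shown from RefSeq with its seed (bases 2 to 8) in capitals, because its absence defines the knockout group.
mmu-miR-155-5p: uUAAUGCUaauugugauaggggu

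HIF binds a short core, most often ACGTG and in other genes its variant GCGTG, so the RefSeq promoter windows of the 10 genes were searched for these letters on both strands. A window spans 250 bases before to 50 after a transcription start in build GRCm38.p6. The reference table gave 11 windows for 9 of the genes, and Ndrg1 had none. At least 1 window of each of the 9 genes held a core, and 9 of the 11 windows did. Pdk1 and Vegfa each also had a window with no core, which for Vegfa was the window further upstream. Over all 32851 windows, 43.8% held one of the cores, 19.6% held ACGTG and 32.4% held GCGTG. Of the 11 windows, 7 held ACGTG and 6 held its variant. In 2 windows, those of Hif1a and Bnip3, an ACGTG match lies within CACGTG, the letters of an E-box, which 7.15% of all windows held. Such a match is a description of these letters and does not show binding. The windows below belong to Egln3 and Adm, whose values spread widely over the knockout arrays, and to Ankrd37 and Bnip3, whose means differed less. They lie at chr12:54203825-54204124 (minus strand), chr7:110627407-110627706 (plus), chr8:45999801-46000100 (minus) and chr7:138909457-138909756 (minus). Capitals mark the cores, and a match of the other strand reads CACGT for the first core and, for its variant, reads CACGC.
Egln3: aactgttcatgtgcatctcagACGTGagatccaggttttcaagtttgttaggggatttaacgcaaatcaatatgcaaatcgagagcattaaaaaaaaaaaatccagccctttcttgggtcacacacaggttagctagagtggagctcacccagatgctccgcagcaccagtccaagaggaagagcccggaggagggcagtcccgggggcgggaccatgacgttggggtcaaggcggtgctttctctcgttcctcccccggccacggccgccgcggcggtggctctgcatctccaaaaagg
Adm: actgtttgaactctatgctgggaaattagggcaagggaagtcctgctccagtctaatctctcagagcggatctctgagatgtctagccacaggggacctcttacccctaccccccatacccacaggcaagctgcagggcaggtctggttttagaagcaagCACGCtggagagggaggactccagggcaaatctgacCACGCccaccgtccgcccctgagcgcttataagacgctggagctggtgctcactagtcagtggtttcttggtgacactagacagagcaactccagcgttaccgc
Ankrd37: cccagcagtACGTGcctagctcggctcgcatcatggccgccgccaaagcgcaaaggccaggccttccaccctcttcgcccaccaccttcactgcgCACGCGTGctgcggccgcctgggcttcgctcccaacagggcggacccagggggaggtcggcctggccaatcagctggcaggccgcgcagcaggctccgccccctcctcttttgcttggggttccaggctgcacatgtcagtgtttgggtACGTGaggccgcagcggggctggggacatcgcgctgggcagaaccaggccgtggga
Bnip3: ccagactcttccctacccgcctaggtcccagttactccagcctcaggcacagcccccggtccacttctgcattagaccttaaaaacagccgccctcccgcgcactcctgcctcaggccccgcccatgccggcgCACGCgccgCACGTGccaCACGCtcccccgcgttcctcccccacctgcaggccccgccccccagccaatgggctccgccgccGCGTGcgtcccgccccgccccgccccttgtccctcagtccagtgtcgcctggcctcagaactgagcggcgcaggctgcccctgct

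Values are log2 of the deposited intensity, and differences between genotypes come from 1 limma fit over all 44170 features. Median intensities were 112.1 to 119.1 on the 8 arrays. The random probes, taken as the background level, stood at log2 4.94 to 5.24. The feature of the miR-155 precursor transcript BIC read 7.51, 5.37, 5.28 and 5.46 on the knockout arrays and 5.27, 4.84, 4.85 and 5.63 in wild-type animals 1 to 4. Its place relative to the deletion is not known, so it checks nothing. The labelled sexes were not separated by Xist, with means of 10.13 in females and 9.95 in males, or by the Y-linked gene Ddx3y, with 7.82 and 7.76. Ddx3y instead lay apart by genotype, at 8.83, 8.39, 8.78 and 8.66 in Mim1-5, Mim1-6, Mim2-2 and Mim2-3 and at 7.25, 7.33, 6.82 and 6.26 in wild-type animals 1 to 4, a difference of 1.75 (limma, adjusted p = 0.262). The animals' sex is therefore not settled by these genes, and its part in the genotype differences and in the labelled-sex term was not tested. Of the 8 arrays, 2 from knockout animals stood apart: Mim2-2 and Mim2-3 correlated with the other 6 at r = 0.811 to 0.877 over all features, against 0.911 to 0.943 among those 6. As to the labelled tissue, all 10 B cell markers lay above the random probes on all 8 arrays. Markers of mammary epithelium were also bright, and their mean on the log2 scale was 10.47, 10.68, 7.75 and 8.62 for Mim1-5, Mim1-6, Mim2-2 and Mim2-3, against 10.55 to 10.98 in the wild type. Of the 20 genes in that list 18 were lower in the knockout mean, and 16 lay above the random probes on every array. Its summed intensity ran from 11364 to 93679 on the knockout and from 85377 to 117241 on the wild-type arrays, and Foxa1 was not above the random probes on any wild-type array. In bulk RNA fewer cells of a type and less RNA per cell cannot be told apart. The difference of each of the 10 genes, the number of them lower and their median are given with the pair of Mim2 arrays and without it.

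None of the 10 genes passed between knockout and wild type. The Benjamini-Hochberg adjusted p of limma over all features ran from 0.291 for Egln3 to 0.954 for Bnip3. In the whole table limma called 0 of 44170 features (0%), while 6122 had an unadjusted p under 0.05. Of the 10 genes 2 had such a p, Egln3 and Ndrg1, both lower in the knockout, where 14.3% of all genes had one with 6.61% lower and 7.7% higher. With no labelled-sex term in the fit, 1 of the 10 had such a p. In the knockout mean 7 genes were lower and 3 higher, against 46.1% of all genes lower. The median difference of the 10 genes was -0.76 on the log2 scale, beside 0.06 over all genes. Both turned without the pair of Mim2 arrays: 4 genes were then lower and 6 higher, against 47.9% of all genes lower, and the median was 0.19, beside 0.023 over all genes. With the labelled-sex term kept in that fit, 6 were lower and the median was -0.068. Without Mim2-3 alone 6 were lower and the median was -0.50. For none of the 10 brightest features did the 4 knockout arrays lie wholly apart from the 4 wild-type arrays, a separation seen in 7.83% of all genes, and in 2.55% with the knockout lower.

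**Figure D1:**
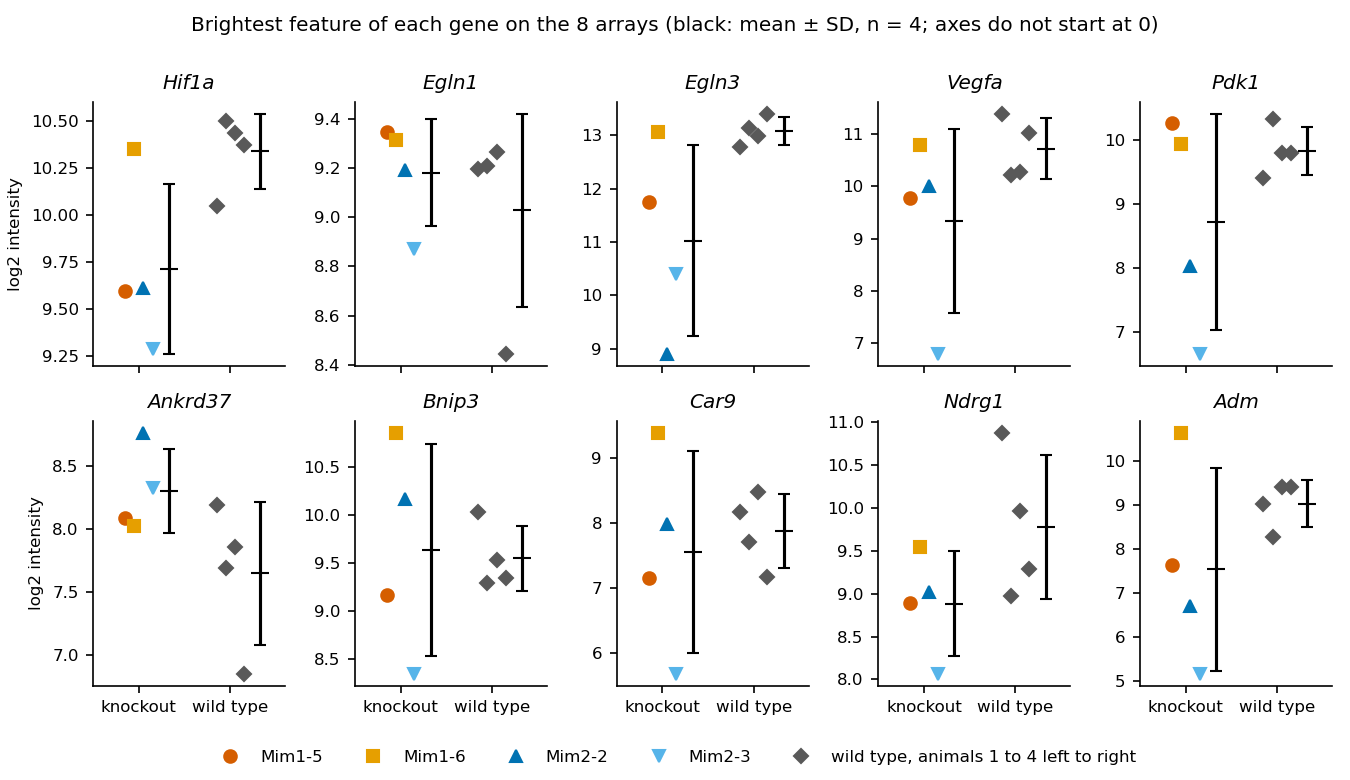
Log2 intensity (vertical axes, which do not start at 0) of the brightest feature of each gene in 4 knockout arrays (coloured symbols) and 4 wild-type arrays (grey diamonds), with mean ± SD in black. Mim2-3 is the lowest of all 8 arrays in 7 of the 10 genes, and the knockout arrays of Egln3, Vegfa, Pdk1, Car9 and Adm spread over more than 3 log2 units.

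Hif1a itself was read on chromosome 12 from 75009011 to 75048072 (build MM9). On the log2 scale it read 9.59, 10.35, 9.61 and 9.28 in the knockout animals Mim1-5, Mim1-6, Mim2-2 and Mim2-3, and 10.05, 10.50, 10.44 and 10.37 in wild-type animals 1 to 4. In all, 3 knockout arrays lay below the whole wild-type range and Mim1-6 lay inside it. The knockout mean was 9.71 ± 0.45 (SD, n = 4) and the wild-type mean 10.34 ± 0.20, a difference of -0.63 with a 95% interval from -1.34 to 0.08 (limma, adjusted p = 0.408). Without both Mim2 arrays and with no sex term, as in all such values here, 2 knockout against 4 wild-type arrays differed by -0.37 ± 0.34 (SE). The 4 other Hif1a features did not move as one. A second bright feature, AK034087, differed by 0.18, and the dimmer X95580 by -1.06, with all 4 knockout arrays below all 4 wild-type arrays (7.22, 7.22, 5.11 and 7.05 against 7.38 to 8.11). Its reading in Mim2-2, 5.11, was not above the random probes of that array, at 5.15. The feature AK048798 differed by 0.95 and exceeded the background of 3 knockout and 2 wild-type arrays, and AK017853 exceeded that of 0 and 1. The sign of the Hif1a difference depends on the feature, and limma adjusted p ran from 0.346 to 0.835 over the 5 of them.

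The 2 oxygen sensors read differed in their spread over the knockout arrays. Egln1, which encodes PHD2, the main prolyl hydroxylase acting on HIF1A, has 1 feature, on chromosome 8 from 127432485 to 127472154. It read 9.35, 9.31, 9.19 and 8.87 on the knockout arrays in the order Mim1-5, Mim1-6, Mim2-2 and Mim2-3, and 9.20, 9.21, 9.27 and 8.44 in wild-type animals 1 to 4. The groups overlapped, with the lowest value in a wild-type animal, and the difference was 0.15 (95% interval -0.49 to 0.80, limma adjusted p = 0.841), or 0.30 ± 0.34 (SE) without both Mim2 arrays. This was the narrowest spread over the knockout arrays among the 10 genes, 0.47 log2 units from lowest to highest.

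Egln3 encodes PHD3, a prolyl hydroxylase that is itself a HIF target, and it lies on chromosome 12 from 55281249 to 55304777. On the knockout arrays, in the order used for Egln1, it read 11.75, 13.06, 8.90 and 10.41, and 12.78, 13.14, 12.99 and 13.41 in wild-type animals 1 to 4. In all, 3 knockout arrays lay below every wild-type array, and Mim1-6 lay among them. The means were 11.03 ± 1.79 (SD, n = 4) and 13.08 ± 0.26, a 4.15-fold lower level in the knockout, with a log2 difference of -2.05 ± 0.67 (SE, limma adjusted p = 0.291). Another 2 features were also lower, with -2.44 for BC044926 and -2.25 for BC058278, and in the first all 4 knockout arrays lay below all 4 wild-type arrays. The dim feature BC022961 differed by 0.40 and exceeded the background of 3 knockout and 2 wild-type arrays. Without both Mim2 arrays the Egln3 difference was -0.68 ± 0.42 (SE). With the mean of the mammary epithelium list as a further term it was -0.06 ± 0.48 (SE). Over the knockout arrays Egln3 fell in the same order as that list, Mim1-6, Mim1-5, Mim2-3 and Mim2-2, and the part of mammary transcripts in its difference was not tested beyond these values. In Mim1-5 Egln3 deviated by -1.33 from the wild-type mean, where the mammary list read 10.47, below the lowest wild-type array at 10.55.

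**Figure D2:**
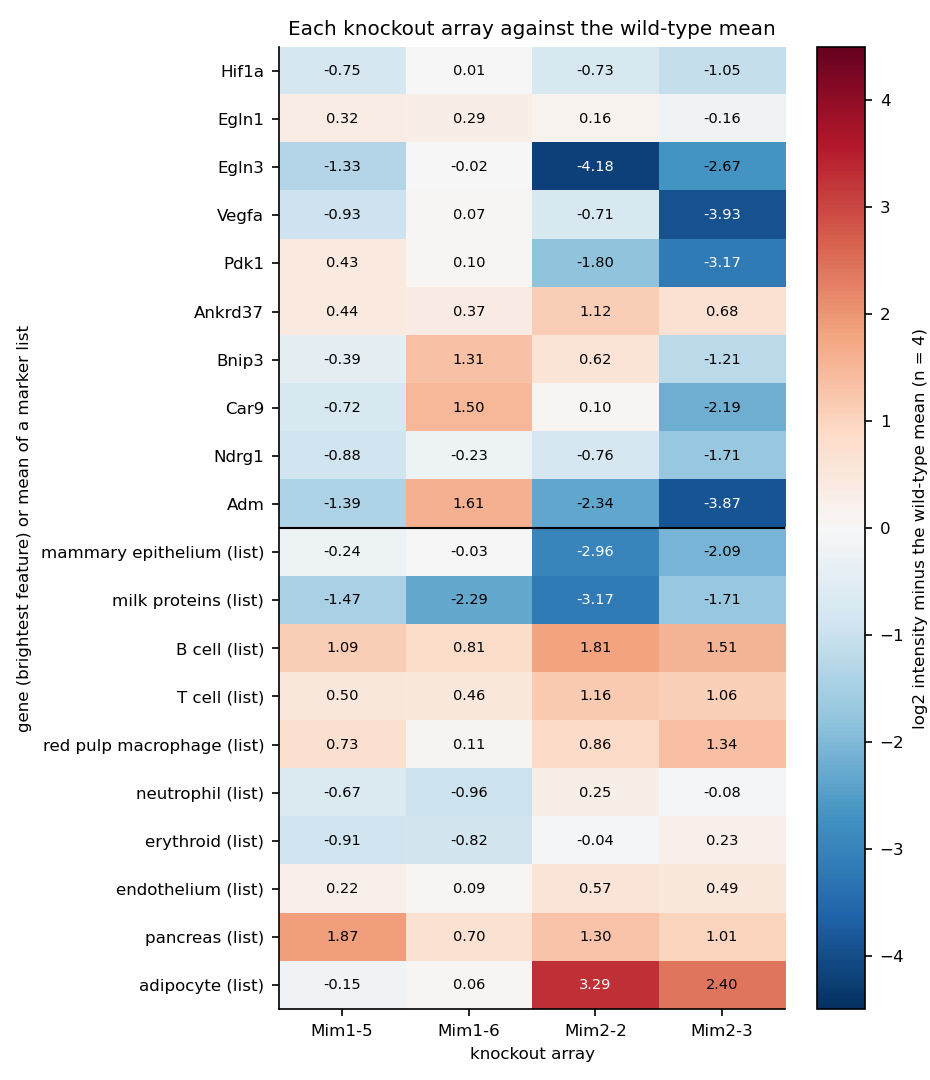
Log2 intensity of each knockout array minus the mean of the 4 wild-type arrays (colour scale and printed values), for the 10 genes above the line and for the means of 10 cell type marker lists below it. Egln3 is lowest in Mim2-2, as the mammary epithelium list is. Hif1a, Egln1, Vegfa, Pdk1, Bnip3, Car9, Ndrg1 and Adm are lowest in Mim2-3.

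Among secreted factors, Vegfa encodes the growth factor that drives blood vessel formation. Its brightest feature lies on chromosome 17 from 46162144 to 46168699. It read 9.79, 10.79, 10.01 and 6.79 in Mim1-5, Mim1-6, Mim2-2 and Mim2-3, and 11.39, 10.21, 10.27 and 11.02 in wild-type animals 1 to 4. The difference of Mim2-3 from Mim2-2 was -3.22, and only Mim1-6 fell inside the wild-type range. The difference was -1.38 with a 95% interval from -2.98 to 0.22 (limma, adjusted p = 0.418). The other 2 features differed by -0.57 and -0.81, so all 3 were lower in the knockout mean. Without both Mim2 arrays the brightest feature differed by -0.43 ± 0.47 (SE).

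Adm encodes adrenomedullin, a vasodilator peptide, and lies on chromosome 7 from 117771184 to 117773334. It read 7.64, 10.65, 6.70 and 5.17 for Mim1-5, Mim1-6, Mim2-2 and Mim2-3, and 9.04, 8.28, 9.43 and 9.41 in wild-type animals 1 to 4. Mim1-6 was above every wild-type array and the other 3 knockout arrays were below all of them. The value in Mim2-3 was not above its random probes, at 5.24, so 3 of 4 knockout arrays measured the gene. This was the widest spread of the 10 genes, 5.48 log2 units over the knockout against 1.15 over the wild type. The mean difference of -1.50 had a 95% interval from -3.29 to 0.29 (limma, adjusted p = 0.431), and without both Mim2 arrays it was 0.11 ± 0.77 (SE).

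Among metabolic targets, Pdk1 encodes a kinase that inhibits pyruvate dehydrogenase and so limits the conversion of pyruvate to acetyl-CoA. Its brightest feature, BC025480, spans chromosome 2 from 71711328 to 71740731 and read 10.25, 9.93, 8.02 and 6.65 in Mim1-5, Mim1-6, Mim2-2 and Mim2-3. In wild-type animals 1 to 4 it read 9.40, 10.32, 9.79 and 9.79. The pair of Mim1 arrays lay inside the wild-type range and the pair of Mim2 arrays below it, with a difference of -1.11 ± 0.64 (SE, limma adjusted p = 0.464), and of 0.27 ± 0.35 without both Mim2 arrays. A second feature, AK163553, of a transcript with the same start that ends at 71723683, went the other way. It read 8.96, 8.24, 8.97 and 9.02 on the knockout arrays and 7.99, 8.03, 7.36 and 7.44 in the wild type. All 4 knockout arrays lay above all 4 wild-type arrays, with a difference of 1.09 ± 0.32 (SE, limma adjusted p = 0.273), and of 0.90 ± 0.37 without both Mim2 arrays. Across all features, 7.34% showed such a separation in either direction, and of the 22 features of these genes 3 did, 1 each for Hif1a, Egln3 and Pdk1. The remaining Pdk1 feature, AK085215, was near background and differed by -0.30.

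Car9 encodes a cell surface carbonic anhydrase that acts in pH control, on chromosome 4 from 43519904 to 43526266. It read 7.15, 9.38, 7.98 and 5.68 in Mim1-5, Mim1-6, Mim2-2 and Mim2-3, and 8.16, 7.71, 8.47 and 7.16 in wild-type animals 1 to 4. The knockout arrays reached both above and below the wild-type range. The difference was -0.33 (95% interval -1.68 to 1.03, limma adjusted p = 0.836), and 0.39 ± 0.63 (SE) without both Mim2 arrays.

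Bnip3 encodes a mitophagy receptor and lies on chromosome 7 from 146082646 to 146101179. It read 9.17, 10.86, 10.17 and 8.35 on the knockout arrays in the same order, and 10.04, 9.29, 9.54 and 9.35 in the wild type. Among the knockout arrays 2 were above and 2 below all wild-type arrays, so the mean difference of 0.08 (95% interval -1.03 to 1.19, limma adjusted p = 0.954) joins values that are 2.51 log2 units apart. Without both Mim2 arrays it was 0.46 ± 0.49 (SE). Ndrg1, a stress-responsive gene induced by hypoxia, lies on chromosome 15 from 66760882 to 66801158. It read 8.89, 9.55, 9.02 and 8.07 in the knockout and 10.88, 8.98, 9.97 and 9.29 in the wild type. Mim1-5 and Mim2-3 lay below the wild-type range, and the difference was -0.89 with a 95% interval from -1.72 to -0.07 (limma, adjusted p = 0.338). Without both Mim2 arrays it was -0.56 ± 0.55 (SE), and -1.20 ± 0.46 with the labelled-sex term kept in that fit. The second Ndrg1 feature differed by -0.71. With all arrays and no labelled-sex term the brightest feature differed by -0.89 ± 0.47 (SE, limma adjusted p = 0.469).

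Ankrd37, an ankyrin repeat gene known as a direct HIF1A target, was higher in the knockout mean, with its highest value in Mim2-2. It lies on chromosome 8 from 47082261 to 47085202. It read 8.09, 8.02, 8.77 and 8.33 in Mim1-5, Mim1-6, Mim2-2 and Mim2-3, and 8.19, 7.69, 7.86 and 6.85 in wild-type animals 1 to 4. Both Mim2 arrays lay above the wild-type range and both Mim1 arrays inside it. The difference was 0.65 with a 95% interval from -0.17 to 1.48 (limma, adjusted p = 0.449), and 0.41 ± 0.41 (SE) without both Mim2 arrays.

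**Figure D3:**
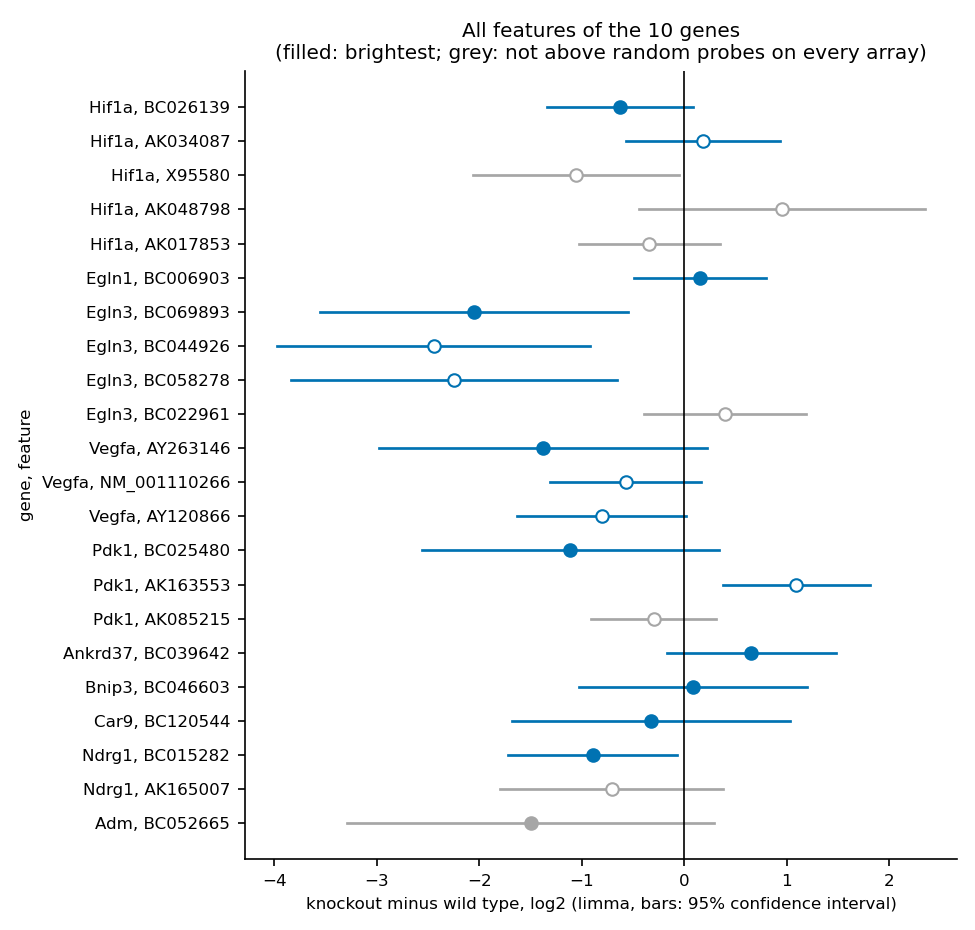
Difference between knockout and wild type on the log2 scale (horizontal axis, limma, bars are 95% confidence intervals) for all 22 features of the 10 genes. Filled circles are the brightest feature of a gene, grey ones were not above the random probes on every array, and the features of Hif1a, Egln3 and Pdk1 lie on both sides of 0.

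Most of the 10 genes varied more among knockout than among wild-type animals. The median range over the 4 knockout arrays was 3.06 log2 units and over the 4 wild-type arrays 1.03, beside 1.32 and 0.96 over all genes. The range was wider in the knockout for 7 of the 10, a share near the 65.4% of all genes. For Egln1, Ankrd37 and Ndrg1 it was wider in the wild type. Mim1-6 was the highest knockout array for 7 genes, where it was for 22.1% of all genes, and Mim2-3 was the lowest of all 8 arrays for 7, where it was for 16.7%. Both held at once within the knockout for 6 genes, namely Hif1a, Vegfa, Bnip3, Car9, Ndrg1 and Adm, against 8.78% of all genes. These counts were chosen after the values were seen and carry no test. The 2 labelled females of the knockout differed among themselves as well: Mim1-6 exceeded Mim1-5 by 1 or more for 5 of the 10 genes, and for 10.1% of all genes. Those 5 were Egln3 by 1.31, Vegfa by 1.002, Bnip3 by 1.70, Car9 by 2.23 and Adm by 3.00. The part of mammary transcripts in this gap was not tested. Other marker lists moved over the knockout arrays. The mean of 9 measured adipocyte genes was 10.74 in Mim2-2 and 9.85 in Mim2-3, against 7.24 to 7.58 over the 4 wild-type animals and 7.30 and 7.51 in the Mim1 pair. Milk protein genes were lower in the knockout mean for 8 of 8, with array means of 7.48 to 9.18 against 10.41 to 11.00. Higher in the knockout mean were 13054 of all 24203 genes. Of the marker lists, 9 of 10 B cell, 10 of 10 T cell, 9 of 10 red pulp macrophage, 8 of 9 pancreas and 7 of 10 endothelial genes were higher. Neutrophil and erythroid genes were mostly lower, with 4 of 10 and 2 of 9 higher. The part of these cell types in the values of the 10 genes was not tested.

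By array, 7 of the 10 genes in Mim1-5 lay below every wild-type array, as did 0, 5 and 8 in the knockout animals Mim1-6, Mim2-2 and Mim2-3. For all genes these shares were 19.9%, 19.95%, 26.6% and 28.1%. The median deviation of the 10 genes from the wild-type mean was -0.74, 0.19, -0.72 and -1.95 for Mim1-5, Mim1-6, Mim2-2 and Mim2-3. That of all genes lay between 0.0048 and 0.11.

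Within the labelled sexes the genotypes were compared with a fit that also holds the genotype by sex interaction. In females, 2 knockout against 2 wild-type arrays, limma called 0 of 44170 features (0%), and the median of the 10 genes was -0.068. In males limma called 1875 features (4.24%), and the median of the 10 was -0.80, beside 0.15 over all genes. Of the 10 genes 2 passed in males, both lower in the knockout, where 4.26% of all genes were called, 3.2% lower and 1.05% higher. Egln3 fell by 3.62 ± 0.61 on the log2 scale, a 12.3-fold lower level (limma, adjusted p = 0.0297), and was lower in both Mim2 arrays than in both wild-type males. Pdk1 fell by 2.72 ± 0.51 in its brightest feature, 6.57-fold (limma, adjusted p = 0.0357), also in both arrays. Of the other 3 Egln3 features, BC044926 and BC058278 passed too, by -4.01 and -3.84. The second Pdk1 feature differed by 1.26 in males and did not pass (limma, adjusted p = 0.138).

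These male differences are also the differences of the 2 arrays that stand apart, on which the mammary list read 7.75 and 8.62 against 10.55 and 10.64 in the wild-type males. Among the males that list's mean was low in both knockout arrays and high in both wild-type arrays. A fit that holds it therefore cannot tell the list and genotype apart there. With the list's mean as a further term limma called 0 features in males, with 5576 at an unadjusted p under 0.05. The Egln3 difference was then 0.56 ± 1.75 (SE) and the Pdk1 difference -6.55 ± 1.37 (adjusted p = 0.948 and 0.187). When single arrays were left out, Egln3 kept its call only without Mim2-3 (limma, adjusted p = 0.0235), and Pdk1 lost it each time (adjusted p from 0.0567 to 0.180). Where the array left out was a male, its arm held 1 sample, which is assumed to vary like the other groups. Where it was a female, the male differences stayed at -3.62 and -2.72, and the adjusted p ran from 0.0507 to 0.0689. The test of the difference between the sexes did not pass for any of the 10 genes. It came nearest for Pdk1, by -3.21 ± 0.73 (SE, limma adjusted p = 0.179), and for Egln3, by -3.14 ± 0.86 (adjusted p = 0.226). Limma called 0 of 44170 features in that test (0%), and 13.6% of all genes had an unadjusted p under 0.05, as did the same 2 of the 10. Adm differed by -2.91 ± 0.97 in males and -0.09 in females, and Vegfa by -2.21 ± 0.99 and -0.54, without passing in either (limma, adjusted p = 0.125 and 0.226 in males). Ankrd37 differed by 1.28 ± 0.42 in males and 0.03 in females (limma, adjusted p = 0.119 in males). In the authors' series table, which holds fewer features, Ankrd37 passed in males as well.

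**Figure D4:**
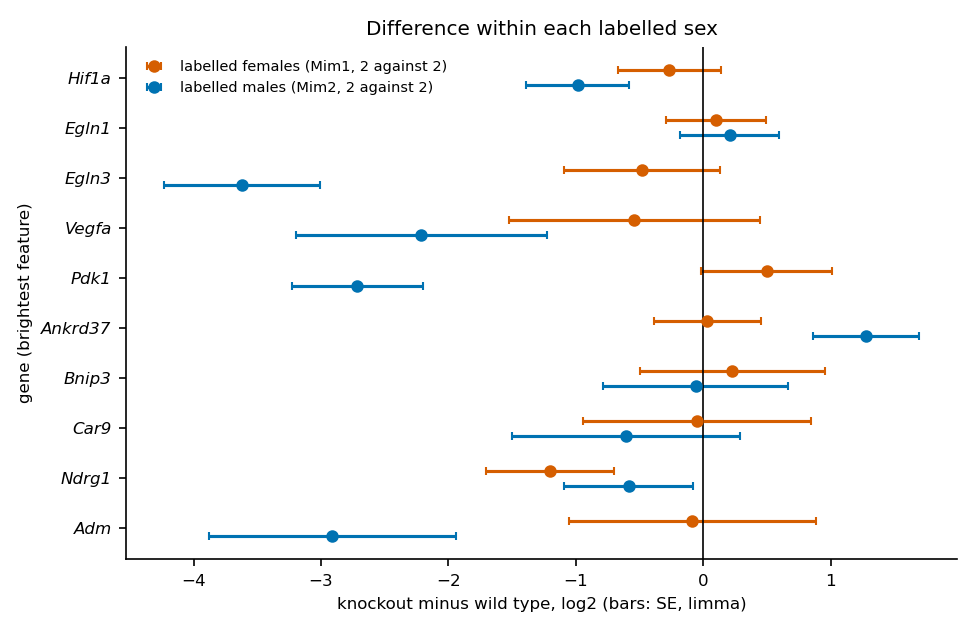
Difference between knockout and wild type on the log2 scale (horizontal axis, bars are SE from limma) for the brightest feature of each gene, within labelled females (orange, 2 against 2 arrays) and labelled males (blue, 2 against 2). Egln3 and Pdk1 lie at -3.62 and -2.72 in males, and Ndrg1 is the gene with the lowest value in females, -1.20.

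The wider pathway was read from 3 lists. The first holds 22 genes that form or regulate HIF, such as its partners, the VHL ligase and coactivators. None passed between knockout and wild type over all features (0 of 22), 14 were lower and 8 higher, and the median was -0.13. Leaving out Mim1-6 gave a median of -0.0042, leaving out Mim1-5 gave -0.20, and leaving out wild-type animal 2 gave -0.086. The fit with neither Mim2 array gave -0.060. Of these genes 6 had an unadjusted p under 0.05 (27.3%, where 14.3% of all genes had one), 5 of them lower. Arnt2, a partner of HIF alpha subunits, read 5.56, 6.23, 4.33 and 5.53 on the knockout arrays in the order Mim1-5, Mim1-6, Mim2-2 and Mim2-3, and 6.57 to 8.02 in the wild type, so the groups did not overlap. Such a separation was seen in 6 of the 22 genes, beside 7.83% of all genes, and Arnt2 was named for its small p. Arnt2 differed by -1.67 ± 0.39 (SE) and was not above the random probes in Mim2-2. Usp20, a deubiquitinase, differed by -1.42, the lectin gene Os9 by -1.31 and Hsp90ab1, a chaperone of HIF1A, by -0.81. The limma adjusted p of these 4 ran from 0.262 to 0.314. The 1 higher gene with an unadjusted p under 0.05 was Hsp90aa1, another HSP90 gene, by 0.66 (limma, adjusted p = 0.357). Named for their role alone were Arnt, Vhl and Epas1, the gene of HIF2A, at -0.65, 0.35 and -0.49 (limma, adjusted p = 0.582, 0.634 and 0.515). In males 3 of the 22 passed, all lower (3.2% of all genes were called lower there), namely Arnt, Os9 and Usp20, by -1.93, -2.21 and -2.40.

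The second list holds HIF targets outside glucose metabolism, of which 48 of 49 were measured. Of these 0 passed, 34 were lower and 14 higher, with a median of -0.33, which was -0.21 without Mim2-3 and 0.048 without the pair of Mim2 arrays. An unadjusted p under 0.05 was seen in 12 (25.0%), 9 lower and 3 higher. Mxi1, a MYC antagonist, read 9.09, 9.24, 8.75 and 8.80 on the knockout arrays and 9.97 to 10.54 in the wild type, and Plod1, a collagen lysyl hydroxylase, 10.43, 11.28, 9.17 and 10.55 against 11.72 to 12.47. Neither gene's groups overlapped, and they differed by -1.29 ± 0.25 and -1.71 ± 0.40 (SE). Within females they differed by -1.37 and -1.34, so these 2 were lower in both pairs of knockout arrays. Groups did not overlap for 5 of the 48 genes, Cxcl12 among them, beside 7.83% of all genes. Mxi1 and Plod1 were named for their small p in the same comparison. The chemokine gene Cxcl12 and the endothelial receptor gene Tek were higher by 1.38 ± 0.34 and 1.85 ± 0.47, and Tek was above the random probes on 7 of 8 arrays. The limma adjusted p of these 4 genes was 0.262. In males 4 of the 48 genes passed as lower and 1 as higher (3.2% and 1.05% of all genes), the lower ones being Cdkn1a, Jmjd6, Tgfb3 and Vldlr and the higher one Cxcl12.

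The last list, named for glucose metabolism, holds 24 HIF targets. Most act in glucose uptake and glycolysis, and others, such as Gbe1, Ak3l1, Pdk3 and Cox4i2, do not. Again 0 passed, 20 were lower and 4 higher, with a median of -0.54, which was -0.046 without the pair of Mim2 arrays. The higher ones were Pfkfb3, Gbe1, Pdk3 and Cox4i2. An unadjusted p under 0.05 was seen in 6 (25.0%), all lower. Groups did not overlap for 0 of the 24 genes, beside 7.83% of all genes. The muscle phosphofructokinase gene Pfkm, the glucose transporter gene Slc2a1, Pfkl and the pyruvate kinase gene Pkm2 had the smallest p, with -0.94, -1.30, -1.02 and -0.83 (limma, adjusted p from 0.312 to 0.344). Slc2a1 read 11.01, 12.19, 9.11 and 9.12 in Mim1-5, Mim1-6, Mim2-2 and Mim2-3 against 11.35 to 11.89 in the wild type, so the pair of Mim2 arrays was low and Mim1-6 was above the wild-type range. In males 2 of the 24 passed, Slc2a1 and Pfkl, both lower (3.2% of all genes). In females the medians of the 3 lists were -0.12, -0.023 and -0.13, and in males -0.097, -0.41 and -0.85, with all genes at 0.025 and 0.15. With the mammary mean as a further term the medians of the 3 lists, in the same order, were -0.12, -0.032 and -0.12. That of the first list was thus near its -0.13 in the main fit. All 3 lists overlap what many cell types express, and their share of mammary transcripts was not tested.

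**Figure D5:**
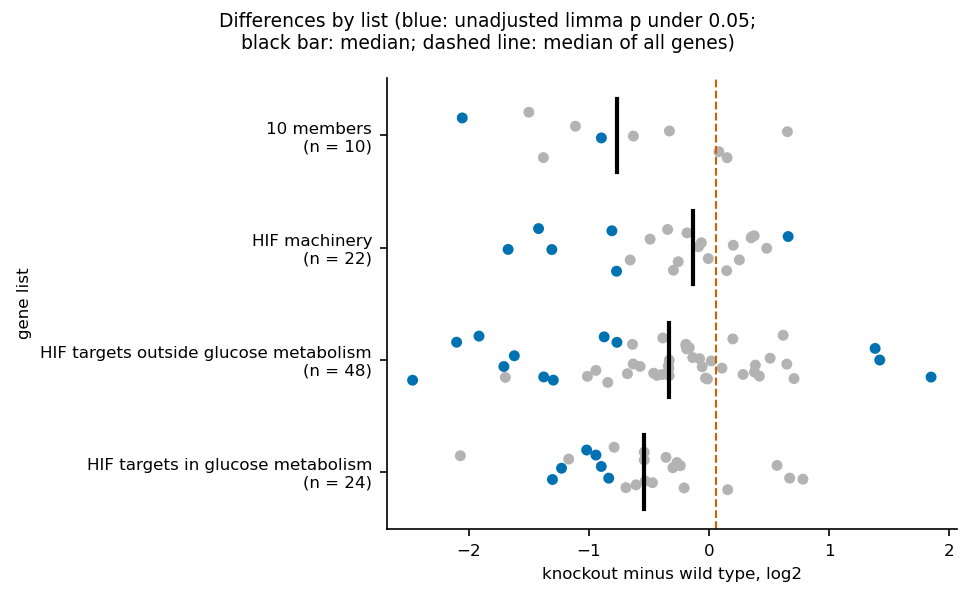
Difference between knockout and wild type on the log2 scale (horizontal axis) for each gene of the 10 and of the 3 pathway lists, blue where the unadjusted limma p was under 0.05. Black bars are medians, at -0.76, -0.13, -0.33 and -0.54 from top to bottom, and the dashed line is the median of all genes, 0.06.

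For Hif1a and Egln3 the 5 most similar genes over the 8 arrays were taken from 15831 others whose brightest feature lay above the random probes on every array. For Hif1a these were Orai1, Acsl4, Gm4108, Vps13a and Bivm, with Pearson r of 0.962 to 0.948 over 8 arrays and 0.877 to 0.960 over the 6 arrays without Mim2. For Egln3 they were Nfya, Slc41a1, Copa, Akt1 and Cgnl1, with r of 0.996 to 0.988, and 0.902 to 0.972 over the 6. Each Egln3 companion was lowest in Mim2-2 and next lowest in Mim2-3, as Egln3 was. These coefficients are the highest of many and are a description of 8 arrays that share the Mim2 contrast.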

How the data were processed

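The authors deposited 1 table per array with a linear intensity for each feature, made with RMA per the submitters' processing notes. This method adjusts background, equalises arrays and combines probes into features, with 3 probes for 44155 of 44170 of them. Per the file headers, positions are those of build MM9. The authors' series table holds 21856 of the features with equal values, up to 1.26e-06 on the log2 scale. Where probes lie within a transcript was not used here.

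Values were log2 transformed with no further normalization. The limma package (3.58.1, under R 4.3.3) gave two-sided tests from a linear model with an additive term for labelled sex. P-values were adjusted by Benjamini-Hochberg across the whole table, and 0.05 was the threshold. Intervals are at 95%. A second fit held the genotype by sex interaction. The additive fit was tested on simulated arrays with independent noise, which held no pair that stood apart. The fit with the interaction was not tested in this way. The members, pathway lists and marker lists were chosen with earlier results of these data known. Named genes are the 10 members, the 4 genes of smallest p per list above the random probes on at least 4 arrays, and the 5 most correlated with Hif1a and Egln3. Sequences are from RefSeq, GRCm38.p6. Alternatives covered normalization, floor, filter, variance model, weights, covariates, feature choice and left-out arrays. The number of arrays limits the precision.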

Additional observations from a re-analysis of the deposited data

Results flagged for a closer look

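One value among the 10 genes stood far from the rest of its group. Egln1 in wild-type animal 4 read 8.44, while the other 3 wild-type arrays read 9.20 to 9.27. The gap took up 0.916 of the group's range, above Dixon's 95% critical value for 4 samples. Chance gives such a value in about 1 of 20 groups, and 20 groups were examined.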

How the results depend on the processing

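No paired analysis was possible because the knockout animals carry no number shared with the wild-type animals. Between knockout and wild type, 18 of 19 alternatives called 0 features, with 0 to 0 when single arrays were left out, and limma's trended, robust variance estimate called 16. None of the 10 genes passed in any of the 19 (0 to 0 with single arrays left out). That estimate also called 578 features in the interaction, where the 4 other settings called 0.

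Over all alternatives, 194 member differences kept their sign and 18 did not. Other features of a gene gave 0.18 (AK034087) and 0.95 (AK048798) for Hif1a, 0.40 for Egln3 and 1.09 for Pdk1. Without both Mim2 arrays Pdk1 gave 0.50, and with no sex term 0.27, Car9 0.39 and Adm 0.11. The mammary term gave 0.21 for Pdk1, -0.077 for Ankrd37 and -0.026 for Bnip3, and array weights -0.099 for Bnip3. Under the mammary term 8 of the 10 genes were lower and 2 higher, with a median of -0.14. The lowest of them were Ndrg1 at -1.31 ± 0.53 and Vegfa at -1.03 ± 1.11 (SE). Leaving out single arrays gave -0.28 to 0.48 for Bnip3, -0.83 to 0.19 for Car9 and -0.012 to 0.29 for Egln1.

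The list medians moved by more than the spread between arrays in 6 settings: to -0.032 (mammary term), 0.048 and -0.023 (without Mim2, without and with the sex term) for targets outside glucose metabolism, and to -0.12, -0.046 and -0.13 for those within it. The count of 7 members lower became 4 and their median of -0.76 became 0.19 without Mim2 and the sex term, and single left-out arrays gave 6 to 8 and -0.91 to -0.50. These alternatives and those for labelled males were chosen after seeing the data. The males' count of 1875 features became 1041 with array weights, 0 with the mammary term, 4830 in the series table, 4266 with the trend and robust model and 0 to 1476 without single arrays. The count of members, 2, became 3 in the series table, where Ankrd37 joined Egln3 and Pdk1, 0 with the mammary term and 0 to 1 without single arrays, where Egln3 gave -4.38 to -2.87 and Pdk1 -3.40 to -2.03. The mammary term, which follows genotype among the males, turned Egln3 there to 0.56 ± 1.75 (SE).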
